A study of Arabidopsis thaliana with 4 samples.

Results

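The 8 genes described here encode the enzymes that take chlorophyll apart in Arabidopsis thaliana. They were taken by their AGI identifiers from 33602 gene IDs, and 8 of 8 were found and passed the filter for testing, which 19592 genes passed. Messenger RNA was measured by RNA-seq of whole seedlings in 4 libraries, 2 of Col-0, the wild type, and 2 of lux-6 in the Col-0 ecotype, whose genotype is labelled lux -/-. The series describes the libraries of each genotype as biological replicates. All seedlings were 10 d old, grown in long days at 22 °C on MS medium with 3% sucrose and harvested 12 h after lights on (zeitgeber time 12). LUX is the DNA-binding member of the evening complex, a transcriptional repressor of the plant clock, and the labels do not say what lesion lux-6 carries. The series is concerned with leaf senescence, so the comparison asks whether breakdown genes differ when LUX is affected.

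Green leaves keep chlorophyll bound to photosystem proteins, and free chlorophyll is phototoxic. When a leaf senesces, chlorophyll b is first turned back into chlorophyll a, the central magnesium is removed, the phytol tail is cut off and the ring is opened, which ends green colour. The colourless products are then passed to the vacuole. Loss of an early enzyme gives stay-green leaves, whereas loss of a late one lets coloured intermediates build up and kill cells, which is how accelerated cell death mutants were found.

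None of the 8 genes was called different between lux-6 and Col-0. The unit is FPKM, which divides fragments by the length of the gene and the size of the library. Changes are log2 fold changes of FPKM + 1, lux-6 against Col-0, from a limma model over all tested genes with Benjamini-Hochberg adjustment, called at an adjusted p of at most 0.05. The members' changes lay between -0.22 for NOL and 0.43 for PPH, with a median of 0.06 against 0.05 over all tested genes. The model called 0 of 8 members, where it called 57 of 19592 genes or 0.291%, and limma-voom on fragments worked back from FPKM also called 0. At an unadjusted p under 0.05 there were 0 of 8 members beside 12.3% of all genes. The genotypes did not overlap for 2 members, PPH, whose lux-6 values were the higher, and NOL, whose lux-6 values were the lower. That is 1 member in each direction, beside 26.1% of all genes with both lux-6 values higher and 22.8% with both lower. An exact permutation test of 2 libraries against 2 has 0.333 as its smallest two-sided p.

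The libraries held between 10735709 and 11198704 fragments in the totals worked back from the values. Col-0 replicate 2 stood apart from the rest. Across genes, Pearson's r of log2(FPKM + 1) was 0.909 for the Col-0 pair and 0.984 for the lux-6 pair. Col-0 replicate 2 had r = 0.863 with each lux-6 library, whereas Col-0 replicate 1, at 0.955 and 0.957, was nearer to the lux-6 libraries than to its own replicate. Plastid-encoded transcripts made up 3.09% of FPKM in Col-0 replicate 2 and between 0.0525% and 0.0698% in the other 3. The targeted gene, LUX (AT3G46640), had 57.0 and 73.9 FPKM in Col-0, against 34.8 and 35.3 in the mutant, and was not called (limma adjusted p = 0.187). The 9 leaf and chloroplast markers summed to 26606 and 39372 FPKM in the wild type, against 22356 and 21245 in the mutant, and the 7 root markers to 2999 and 1484 against 2665 and 3039, so both organs of a seedling were present. The leaf sum is mostly RBCS transcript and the list did not move one way. Its 4 RBCS genes were lower in both lux-6 libraries, 3 others were higher and the median change was 0.03. LHCB1.1 (AT1G29920), a light-harvesting protein gene with near-identical copies, was called higher, from 39.5 and 40.2 FPKM to 336 and 264 (log2 fold change 2.87, limma adjusted p = 0.0330), but its fold is uncertain where reads could be split among copies. LHCB2.1 (AT2G05100) and RCA (AT2G39730) were the other 2 genes above and were not called, with log2 fold changes of 1.73 and 0.54. The 10 seed and embryo markers summed to 239 and 20.4 FPKM in the wild type but to 2081 and 2193 in the mutant, all 10 higher in both lux-6 libraries. SESA4 and CRU2 were listed at 0 in Col-0 replicate 2. Flower markers were near 0, from 0 to 0.270 FPKM for AG and AP3 and up to 1.62 for PI. The part of plastid, seed and leaf RNA in the values below was not tested. In whole seedlings, fewer cells of a type and less RNA per cell cannot be told apart.

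Magnesium removal is the committed step. NYE1 (AT4G22920), also called SGR1, encodes the magnesium dechelatase whose pea counterpart underlies Mendel's green cotyledons. Wild-type replicates 1 and 2 held 9.47 and 7.62 FPKM of it, and mutant replicates 1 and 2 held 14.3 and 9.01. Only lux-6 replicate 1 stood above the other libraries, and lux-6 replicate 2 lay below Col-0 replicate 1. The means were 8.55 ± 1.31 and 11.7 ± 3.74 FPKM (SD, n = 2), and the log2 fold change was 0.38 ± 0.28 (standard error; limma adjusted p = 0.583). Without lux-6 replicate 1 the change was 0.08, and without lux-6 replicate 2 it was 0.69. Behind these values were 165 and 135 fragments for the wild type, then 248 and 153 for the mutant. The exact 95% Poisson interval of lux-6 replicate 1, 12.6 to 16.2 FPKM, did not reach that of lux-6 replicate 2, 7.64 to 10.6, so the replicates of the mutant differed by more than counting error.

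NYE2 (AT4G11910), the paralogue of NYE1, was the least abundant member. It stood at 2.42 and 1.49 FPKM in the wild type, with 2.12 and 3.72 in the mutant, on 32, 20, 28 and 48 fragments. Here lux-6 replicate 2 was high and lux-6 replicate 1 lay between the Col-0 libraries, the other way round from NYE1. The log2 fold change was 0.40 ± 0.34 (standard error; limma adjusted p = 0.631), and 0.10 without lux-6 replicate 2. NYE1 exceeded NYE2 in all 4 libraries, by 3.92 and 5.13 times in the wild type and, in the mutant, 6.73 and 2.42 times, so the lux-6 ratios enclosed those of Col-0. The paralogues share no run of bases longer than 28, and no window of 50 bases of either occurs in another annotated transcript, so a read of that length matches 1 of them.

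**Figure D1:**
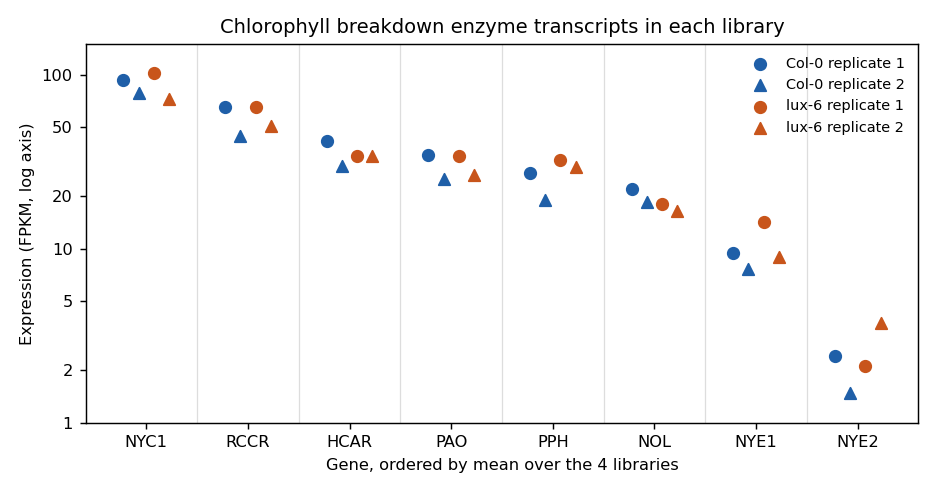
FPKM on a log axis (vertical) for each of the 8 genes (horizontal, ordered by mean), with Col-0 in blue, lux-6 in orange, circles for replicate 1 and triangles for replicate 2. NYC1 was highest, between 72.6 and 102 FPKM, NYE2 lowest, between 1.49 and 3.72, and only PPH and NOL have both lux-6 points on one side of both Col-0 points.

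Before magnesium can be removed, chlorophyll b has to be reduced to chlorophyll a. NYC1 (AT4G13250) encodes the membrane subunit of chlorophyll b reductase, whose loss keeps leaves and their antenna complexes green. It was the most abundant member, at 93.0 and 78.0 FPKM in the wild type, against 102 and 72.6 in the mutant, and it ranked above 92.5% of tested genes. The lux-6 pair enclosed the Col-0 pair. Means of 85.5 ± 10.6 and 87.2 ± 20.6 FPKM (SD, n = 2) gave a log2 fold change of 0.01 (95% interval -0.59 to 0.62; limma adjusted p = 0.983). That interval runs from 0.664-fold to 1.54-fold, so changes within it could not be told from none with these libraries.

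NOL (AT5G04900), the NYC1-like partner in chlorophyll b reductase, was at 22.0 and 18.6 FPKM in the wild type, against 18.1 and 16.5 in the mutant. Both lux-6 values were below both Col-0 values, but by a margin of less than 1 FPKM between the nearest pair, within the counting intervals of 16.4 to 21.0 and 15.9 to 20.5 FPKM. The log2 fold change of -0.22 ± 0.18 (standard error) did not pass (limma adjusted p = 0.623) and ranged from -0.33 to -0.10 as each library was left out. NYC1 exceeded NOL by 4.22 and 4.20 times in the wild type but 5.63 and 4.40 times in the mutant.

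HCAR (AT1G04620), the reductase that completes the return to chlorophyll a, was at 41.8 and 29.7 FPKM in the wild type, with 33.9 and 34.3 in the mutant. Both lux-6 values lay between the Col-0 values, with an SD of 0.277 FPKM (n = 2) against 8.56. The log2 fold change was -0.05 (95% interval -0.61 to 0.51; limma adjusted p = 0.934). Its sign turned to 0.19 without Col-0 replicate 1.

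PPH (AT5G13800), pheophytinase, cuts the phytol tail from magnesium-free chlorophyll and is needed for leaf yellowing. Its log2 fold change of FPKM + 1 was the largest of the 8, though NYE2 exceeded it at a pseudocount of 0.1 (0.55 against 0.44) and in limma-voom (0.56 against 0.44). Col-0 was at 27.2 and 19.0 FPKM and lux-6 at 32.4 and 29.5, both lux-6 libraries above both of Col-0. Means of 23.1 ± 5.79 and 30.9 ± 2.06 FPKM (SD, n = 2) gave a log2 fold change of 0.43 ± 0.22 (standard error; 95% interval -0.16 to 1.01; limma adjusted p = 0.507). The gap between the Col-0 replicates, 0.50 on the same log2 scale, was wider than this difference. Without Col-0 replicate 2 the change was 0.18. Without Col-0 replicate 1 it was 0.67 and passed (limma adjusted p = 0.0170), in a fit that called 33.8% of all genes and had the spread of the lux-6 pair alone to go by. The lone Col-0 library is there assumed to vary like the lux-6 pair.

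PAO (AT3G44880), pheophorbide a oxygenase, opens the ring and is the ACD1 gene of accelerated cell death. It had 34.4 and 25.2 FPKM in the wild type beside 34.0 and 26.5 in the mutant. The genotypes overlapped, with replicate 1 the higher in each. The log2 fold change was 0.03 (95% interval -0.58 to 0.63; limma adjusted p = 0.966). Its sign turned without Col-0 replicate 2 and without lux-6 replicate 1, to -0.19 and -0.15. RCCR (AT4G37000), or ACD2, reduces the red product of ring opening to its first colourless form. It showed the same arrangement, with 65.6 and 44.5 FPKM in the wild type, against 65.3 and 50.8 in the mutant (log2 fold change 0.09, 95% interval -0.58 to 0.76; limma adjusted p = 0.891). The RefSeq model of RCCR overlaps that of its neighbour AT4G37010 on the same strand by 167 bases, and 118 of its 1459 windows of 50 bases are shared with it, so part of its reads could be counted for either. AT4G37010 itself stood at 25.4 and 9.02 FPKM in the wild type, against 16.0 and 21.8 in the mutant.

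**Figure D2:**
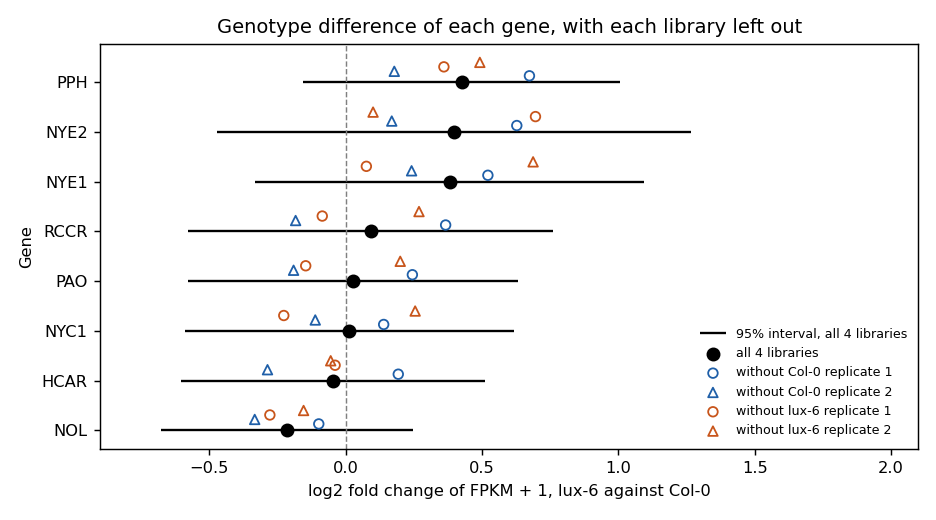
Log2 fold change of FPKM + 1 (horizontal, lux-6 against Col-0) for each gene (vertical). Black points and bars are the estimate and 95% interval from all 4 libraries, and open symbols the estimate with 1 library left out. All 8 intervals hold 0. NYE1, NYE2 and PPH keep a positive estimate and NOL a negative one whichever library is left out, while NYC1, PAO, RCCR and HCAR have open symbols on both sides of 0.

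Across the 8 genes, the difference between genotypes did not exceed the replicate gaps of both genotypes. The genotype difference was smaller than the wider of the replicate gaps for 8 of 8 members, and for 69.2% of all tested genes. It was larger than the lux-6 gap for PPH, NOL and HCAR, and larger than the Col-0 gap for NYE1. The median gap between lux-6 replicates was 0.35 on the log2 scale for the members and 0.16 for all tested genes, and between Col-0 replicates 0.45 and 0.35. All 8 members were higher in Col-0 replicate 1 than in replicate 2, as were 61.8% of all tested genes. In lux-6, replicate 1 was the higher for 6 of 8 members, NYE2 and HCAR being the others, and for 44.5% of all tested genes. Summed over the 8 genes, FPKM was 295.9 and 224 in the wild type but 301.8 and 243 in the mutant, between 0.0296% and 0.0428% of all FPKM. The intervals of all 8 members hold a change of 1.5-fold in at least 1 direction, and those of 3 members, NYE1, NYE2 and PPH, a change of 2-fold.

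**Figure D3:**
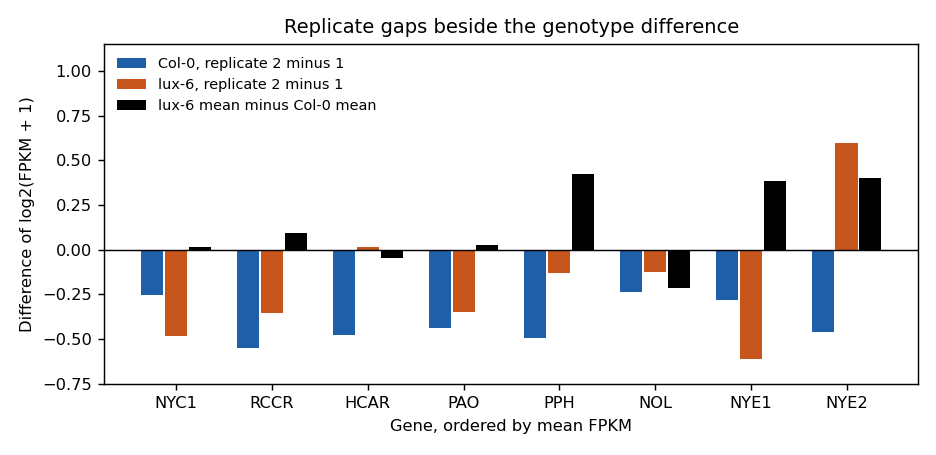
Difference of log2(FPKM + 1) (vertical) for each gene (horizontal): blue bars are Col-0 replicate 2 minus 1, orange bars lux-6 replicate 2 minus 1, black bars the lux-6 mean minus the Col-0 mean. For 8 of 8 genes the black bar is shorter than the longer of the coloured bars, and all 8 blue bars point down.

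The order of the levels was NYC1, RCCR, HCAR, PAO, PPH, NOL, NYE1 and NYE2, with means over the 4 libraries of 86.4, 56.6, 34.9, 30.0, 27.0, 18.8, 10.1 and 2.44 FPKM. FPKM is scaled by length, which lets genes be compared. NYC1 and RCCR, RCCR and HCAR, NOL and NYE1, and NYE1 and NYE2 did not overlap over the 4 libraries. HCAR and PAO, PAO and PPH, and PPH and NOL did. The dechelatase genes that commit chlorophyll to breakdown were thus the lowest members in both genotypes, NYE1 above 39.9% and NYE2 above 9.87% of tested genes.

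Ratios taken within a library do not depend on its scaling. They were chosen after the members' values were seen and are descriptions. PPH relative to PAO, the next enzyme in the pathway, was 0.790 and 0.754 in the wild type but 0.953 and 1.11 in the mutant. PPH relative to HCAR was 0.650 and 0.639 in the wild type but 0.955 and 0.859 in the mutant. Both ratios were higher in both lux-6 libraries, and the Col-0 replicates differed little in them. Among single genes, 48.8% of all tested genes did not overlap between genotypes, and the share over other gene pairs was not computed. NYE1 relative to PAO was also higher in lux-6, at 0.275 and 0.303 in the wild type against 0.421 and 0.340 in the mutant. NYE1 relative to the synthesis gene CHLH was lower, at 0.113 and 0.147 against 0.103 and 0.0771. NYE1 itself overlapped between genotypes, and counting error was not carried into these ratios. NYC1 relative to HCAR overlapped. RCCR relative to PAO, the enzyme that acts just before it, was 1.91 and 1.77 in the wild type, then 1.92 and 1.92 in the mutant.

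Patterns most like those of 3 members were sought among tested genes by the root mean square difference of log2(FPKM + 1), each gene centred on its mean over the 4 libraries. NYE1 was nearest to NAC057 (AT3G17730) and ATAF1 (AT1G01720), both NAC transcription factor genes, at differences of 0.022 and 0.035. ATAF1 stood at 61.8 and 48.4 FPKM in the wild type, against 91.4 and 56.6 in the mutant. Its high lux-6 replicate 1 follows from its choice by likeness to NYE1. PPH was nearest to WIT2 (AT1G68910), a nuclear envelope protein gene, and LTI30 (AT3G50970), a cold-induced dehydrin gene, at 0.0043 and 0.0066, and PAO to AT1G73020 and AT3G58430, at 0.015 and 0.022. With 4 libraries many genes are this close. There were 53 genes within 0.1 of NYE1, 402 of PAO and 802 of PPH.

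Other genes of the pathway also had no member past the test. Of 6 further breakdown genes, the chlorophyllases, the dephytylase CLD1 and enzymes that modify the products, 0 were called by limma or limma-voom and 0 had an unadjusted p under 0.05. Both lux-6 libraries were higher for 2 and lower for 2 of the 6, where over all tested genes the shares were 26.1% and 22.8%. The median change was -0.27, and it ran from -0.40 without lux-6 replicate 1 to -0.07 without lux-6 replicate 2, with -0.16 without Col-0 replicate 2. MES16 (AT4G16690), which demethylates the colourless products, was at 10.3 and 18.4 FPKM in the wild type, with 25.3 and 22.7 in the mutant (limma adjusted p = 0.416). CLH1 (AT1G19670), a chlorophyllase that jasmonate induces, was at 43.1 and 41.0 FPKM in the wild type, against 33.3 and 30.0 in the mutant (limma adjusted p = 0.420). CLD1 (AT5G38520) had a log2 fold change of -0.42. Of 4 genes that salvage phytol, by phosphorylation towards vitamin E or as fatty acid esters, 0 were called by either tool and 0 had an unadjusted p under 0.05. VTE6 (AT1G78620), the kinase that acts after VTE5, had the smallest p of these, at 15.9 and 27.1 FPKM in the wild type, against 15.1 and 13.4 in the mutant. Its change of -0.52 was -0.15 without Col-0 replicate 2. PES2 (AT3G26840), a phytyl ester synthase, and VTE5 (AT5G04490), the phytol kinase, had log2 fold changes of 0.40 and 0.31.

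Chlorophyll synthesis, the opposite pathway, had changes between -0.91 and 1.58. Of 23 tested genes 0 were called by limma or limma-voom, with 4 higher and 6 lower at an unadjusted p under 0.05, beside 1799 and 608 of the 19592 genes. Both lux-6 libraries were above Col-0 for 5 of them and below for 13, beside 26.1% and 22.8% of all genes. The median change was -0.32, and it ran from -0.49 without Col-0 replicate 1 to -0.24 without Col-0 replicate 2. DVR (AT5G18660), a vinyl reductase, was at 101 and 121 FPKM in the wild type, with 61.0 and 55.3 in the mutant (log2 fold change -0.91, limma adjusted p = 0.156). HEMC (AT5G08280), which builds the linear tetrapyrrole, had -0.76 and HEMA2 (AT1G09940), a glutamyl-tRNA reductase, 0.82. CAO (AT1G44446), named after its values were seen, makes chlorophyll b from a and so works against NYC1, NOL and HCAR. It stood at 24.4 and 12.4 FPKM in the wild type, with 43.4 and 30.5 in the mutant (log2 fold change 1.02, limma adjusted p = 0.381), and at 0.56 without Col-0 replicate 2. CAO relative to NYC1 was 0.263 and 0.159 in the wild type but 0.427 and 0.421 in the mutant. The synthesis list was chosen with earlier results of these data known, and a test of the difference between the pathways was not made.

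Transcription factors linked in published work to chlorophyll breakdown or its control gave mostly positive changes. The list, chosen with earlier results of these data known, holds 21 factors of senescence, abscisic acid, ethylene, jasmonate, light and chloroplast development. Of these 0 were called over all genes by limma or by limma-voom, while 10 were higher and 1 lower at an unadjusted p under 0.05, beside 1799 higher and 608 lower of 19592 genes. Both lux-6 libraries were above Col-0 for 16 of 21 and below for 2, beside 26.1% and 22.8% of all genes. The median change was 0.72, against 0.05 over all genes. It was 0.43 when Col-0 replicate 2 was left out and 1.21 when Col-0 replicate 1 was left out, where the all-gene medians were -0.04 and 0.14. Col-0 replicate 1 was above replicate 2 for 20 of the 21 factors, or 95.2%, beside 61.8% of all tested genes. The median gap between Col-0 replicates, 2 minus 1, was -0.69 for the factors and -0.14 for all tested genes. The factors' gap was thus close in size to their median change. NAC055 (AT3G15500), a factor of jasmonate and abscisic acid responses, was at 2.35 and 0.631 FPKM in the wild type, with 40.4 and 18.4 in the mutant (log2 fold change 3.60, limma adjusted p = 0.0895). NAP (AT1G69490), which promotes leaf senescence, was at 1.81 and 0.812 against 38.0 and 12.2 FPKM (3.33, limma adjusted p = 0.120). GLK1 (AT2G20570), an activator of chloroplast and chlorophyll synthesis genes, was the lowest of the list, at 58.5 and 49.4 FPKM in the wild type, against 25.3 and 25.5 in the mutant (-1.05, limma adjusted p = 0.108).

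Several factors named after their values were seen are linked in published work to genes of the 8. ORE1 (AT5G39610), for which NYE1, NYC1 and PAO are reported targets, was at 13.9 and 7.97 FPKM in the wild type, against 43.9 and 32.4 in the mutant (log2 fold change 1.74, limma adjusted p = 0.132). PIF5 (AT3G59060), which drives dark-induced yellowing, was at 28.2 and 6.61 against 123 and 118 FPKM (3.03, limma adjusted p = 0.174), and had 2.06 without Col-0 replicate 2. MYC2 (AT1G32640), the jasmonate factor, was at 57.1 and 29.5 against 140.4 and 108 FPKM (1.56, limma adjusted p = 0.197). EIN3 (AT3G20770), the ethylene factor, was at 63.0 and 48.1 against 79.1 and 77.4 FPKM (0.50, limma adjusted p = 0.409), and had 0.31 without Col-0 replicate 2. Not every factor of these kinds was higher. MYC3 (AT5G46760), a relative of MYC2, had 0.09 and ABF2 (AT1G45249), an abscisic acid factor, -0.04, both with overlapping genotypes, and SOC1 (AT2G45660), a flowering factor, had -0.51 with both lux-6 libraries lower. In the same libraries NYE1 had 0.38, NYC1 0.01 and PAO 0.03. A test of this difference between the lists was not made.

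**Figure D4:**
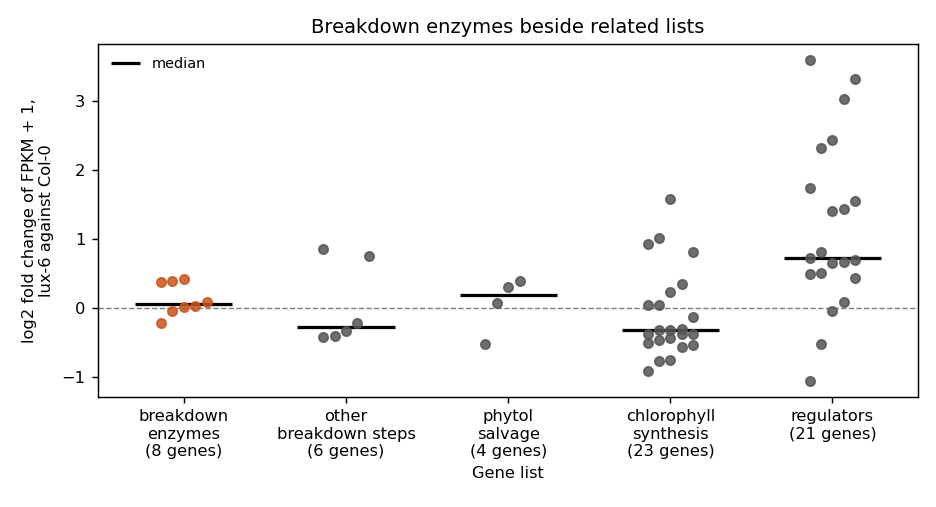
Log2 fold change of FPKM + 1 (vertical, lux-6 against Col-0) of every tested gene in 5 lists (horizontal), with the 8 breakdown enzymes in orange and a black line at each median. The enzymes lie between -0.22 and 0.43 around a median of 0.06, the 23 synthesis genes between -0.91 and 1.58 and the 21 regulators between -1.05 and 3.60.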

How the data were processed

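The authors deposited 1 table of FPKM values per library, the unit per the file headers. TopHat2 2.0.12 and the TAIR10 build stand in the submitters' processing notes, with no role stated. Which counter, lengths and strand setting were used is not given in the sources used here. RNA was prepared, per the labels' protocols, with TRIzol, DNase I and an NEBNext Ultra RNA kit. FPKM are not counts, so log2(FPKM + 1) was tested with limma-trend (limma 3.58.1, R 4.3.3), two-sided, with genotype as the only term. Genes whose mean reached 1 FPKM were kept. There were 2 residual and 2.88 prior degrees of freedom. The pseudocount understates changes of low genes. Fragments were worked back by searching gene lengths between 0.5 and 1.2 times the RefSeq (TAIR10.1) exon length for whole numbers within 0.002 in all libraries, found for 82.9% of 24532 genes above 0. That holds for 7 members. NYC1 fragments are not given. Poisson intervals cover counting error only. Shared windows and overlaps come from TAIR10.1 gene models, and no sequence or position of that build is given. The limma fit and the recovery of fragments were each run on simulated data, with outcomes not reported here. The limma simulation gave every gene in both genotypes the same fixed spread beyond counting error, which was not estimated from these libraries. The median replicate gap was 0.16 for lux-6 and 0.35 for Col-0. The simulation therefore does not show how the fit performs at the spread of these libraries. Members and lists were chosen with earlier results of these data known. Named are all members, up to 3 genes of each related list by smallest p, and others where said. P-values set the genotype difference against an error estimated from the spread between these replicate libraries, moderated by the spread over all tested genes.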

Additional observations from a re-analysis of the deposited data

How the results depend on the processing

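The count of members past the test stayed at 0 under median-of-ratios scaling, removal of organelle genes, no filter, a minimum mean of 5 FPKM (which drops NYE2), a pseudocount of 0.1, a replicate block and limma-voom. With 1 library left out it ranged from 0 to 1. The members' median change lay between 0.0012 and 0.0952 in the alternatives that kept all 4 libraries. It was 0.31 without Col-0 replicate 1 and 0.23 without lux-6 replicate 2. Its sign turned to -0.15 without Col-0 replicate 2 and to -0.06 without lux-6 replicate 1. NYE1, NYE2, NOL and PPH kept their sign under every alternative that could be run for them. Under median-of-ratios scaling NYC1 turned to -0.045 and PAO to -0.031. With 1 library left out NYC1 ranged from -0.23 to 0.25, PAO from -0.19 to 0.24, RCCR from -0.18 to 0.37 and HCAR from -0.29 to 0.19. The median over all tested genes moved from 0.05 to 0.14 without Col-0 replicate 1 and to -0.04 without Col-0 replicate 2.

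The count over all genes, 57, was 96 under median-of-ratios scaling, 98 without organelle genes, 100 at a minimum mean of 5 FPKM, 90 with limma-voom, 0 without a filter and 0 at a pseudocount of 0.1, where 2680 and 2316 genes had an unadjusted p under 0.05 in limma. With 1 library left out it ranged from 0 to 6618. In each of those fits the residual spread came only from the genotype left with both libraries. Why the counts differ among the alternatives was not tested. The replicate block gave 340. Whether same-numbered libraries were grown or prepared together is not known. Their deviations from their genotype means correlated at -0.025 across genes, which cannot decide it, so the block stands as an alternative only. NYE2, on 20 to 48 fragments, is the member most limited by depth.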
